A study of Mus musculus with 12 samples.

Results

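The genes of the NF-kB subunits and of the proteins that hold them in check were followed in naïve CD8+ T cells of the mouse. These are 10 genes chosen by their symbols, out of 14323 symbols in the count table: the 5 DNA-binding subunits Nfkb1, Nfkb2, Rel, Rela and Relb, and the 5 inhibitors Nfkbia, Nfkbib, Nfkbie, Nfkbid and Tnfaip3. The study asked how the collagen receptor LAIR-1, an inhibitory receptor of leukocytes, alters the response of T cells to their antigen receptor. The cells were obtained by sorting from spleen, from 3 adult wild type C57BL/6N mice. Wells coated with antibodies received 100000 of them for 6 h, after which their RNA was sequenced from the 3′ end (CEL-seq). Each mouse gave a library to each of 4 groups, 12 libraries in all. The unstimulated isotype group had isotype antibodies only, the unstimulated anti-LAIR-1 group had 2.5 µg/ml of the agonistic antibody 2C7, the anti-CD3 isotype group had 2.5 µg/ml of anti-CD3ε, and the anti-CD3 anti-LAIR-1 group had both. All cells thus came from the same animals and carry no altered allele. An antibody that clusters CD3 stands in for antigen here, and 2C7 for collagen.

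NF-kB is a family of dimeric transcription factors that is kept in the cytoplasm of resting T cells by inhibitor of kB (IkB) proteins. Triggering of the T cell receptor acts through signalling proteins that include BCL10 and MALT1 and leads to activation of the IkB kinase (IKK) complex, degradation of the IkB proteins and entry of the dimers into the nucleus. Several subunit and inhibitor genes are themselves targets of NF-kB, so that the pathway feeds back on itself. Messenger RNA levels, as measured here, report neither IkB degradation nor nuclear entry.

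The promoters of the genes are shown first, searched for the consensus sequence of NF-kB. RefSeq promoter windows (GRCm38.p6, 250 bases before to 50 bases after an annotated start) were matched for 8 of the 10 genes, 13 windows in all, with Nfkb1 and Relb the 2 left without. The NF-kB consensus motif, 10 bases long, was searched on both strands, and matches that overlap each other were joined. It was found for 6 of these 8 genes (Nfkb2, Rel, Nfkbia, Nfkbie, Nfkbid and Tnfaip3) and for 8 of the 13 windows, while 8.46% of all 32851 windows and 9.55% of 27025 genes held it. No match was found in the windows of Rela and Nfkbib. The last 2 of the 3 windows of Nfkb2 overlap and share the downstream match shown for the second start. The sequences that follow read 5′ to 3′ on the strand of the gene, with the bases of a match on either strand in capitals. A match describes these letters and was not tested for binding.
Nfkbia, whole window (chr12:55492598-55492897, minus strand): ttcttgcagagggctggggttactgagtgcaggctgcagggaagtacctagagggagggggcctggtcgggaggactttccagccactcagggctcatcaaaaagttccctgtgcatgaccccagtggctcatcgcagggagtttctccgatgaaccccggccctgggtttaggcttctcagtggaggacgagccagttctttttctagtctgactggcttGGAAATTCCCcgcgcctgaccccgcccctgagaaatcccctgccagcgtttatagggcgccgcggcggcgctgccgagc
Rel (chr11:23771036-23771076, minus strand): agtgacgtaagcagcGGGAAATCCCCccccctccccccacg
Nfkb2, first start (chr19:46304683-46304750, plus strand): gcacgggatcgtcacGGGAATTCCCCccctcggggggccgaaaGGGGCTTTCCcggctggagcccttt
Nfkb2, second start, upstream match (chr19:46305445-46305483, plus strand): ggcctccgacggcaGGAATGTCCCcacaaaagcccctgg
Nfkb2, second start, downstream match (chr19:46305690-46305729, plus strand): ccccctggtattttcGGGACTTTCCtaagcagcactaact
Nfkbie (chr17:45555579-45555618, plus strand): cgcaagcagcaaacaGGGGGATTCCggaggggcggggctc
Nfkbid, second start (chr7:30422165-30422249, plus strand): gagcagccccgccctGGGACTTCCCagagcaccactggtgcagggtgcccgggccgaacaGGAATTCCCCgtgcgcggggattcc
Tnfaip3, upstream match (chr10:19015511-19015550, minus strand): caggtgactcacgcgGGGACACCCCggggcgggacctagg
Tnfaip3, match at the start (chr10:19015398-19015437, minus strand): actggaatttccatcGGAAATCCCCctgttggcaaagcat

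**Figure D1:**
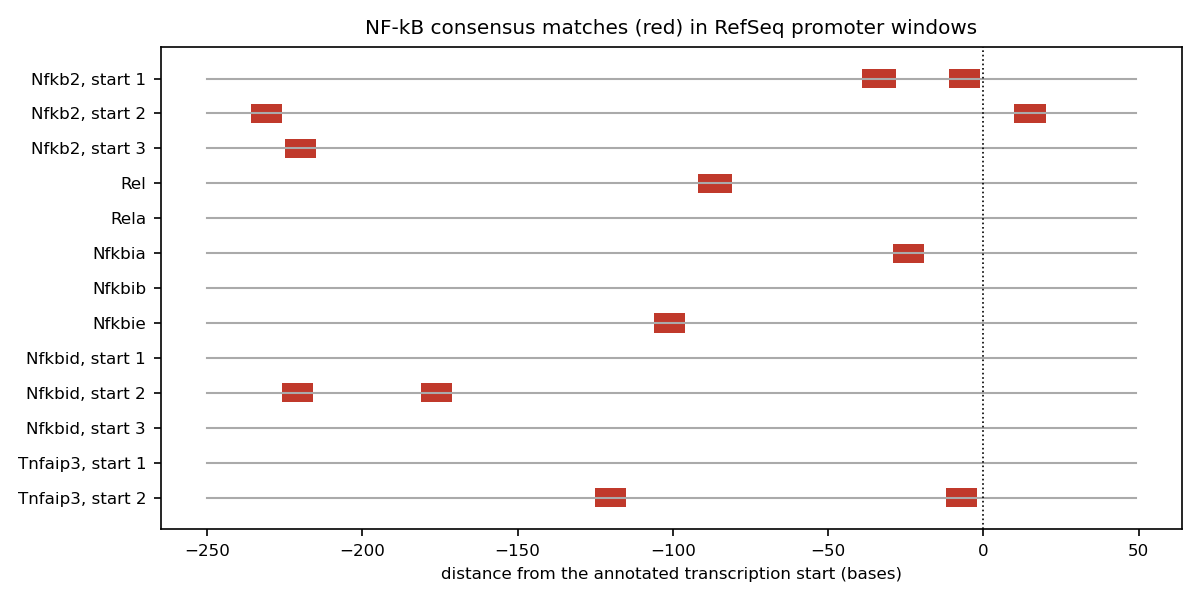
Position of NF-kB consensus matches (red bars) in the 13 RefSeq promoter windows of 8 genes, with the distance from the annotated transcription start in bases on the horizontal axis. Matches lie within 50 bases of a start in Nfkb2, Nfkbia and Tnfaip3, and none is seen in the windows of Rela and Nfkbib.

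Library totals ranged from 1781218 to 7725545 counts, so that 3 counts correspond to 0.388 to 1.68 CPM (counts scaled to library size, with sizes adjusted by the trimmed mean of M-values). The unstimulated isotype libraries were the shallowest, with at most 2957929 counts. Mitochondrial genes took 17.6 to 20.9% of the counts without and 11.5 to 13.2% with anti-CD3. The sorted cell type was checked against its markers. Cd8a was between 325 and 441 CPM in the 12 libraries, Cd4 had at most 7 counts, and 7 B cell markers summed to 6.98 to 19.8 CPM. Cd8a was the steadiest of 7 T cell and CD8 markers. These summed to 4014 to 4571 CPM with isotype alone and 2238 to 2399 CPM with anti-CD3 and isotype. All 7 were lower there (edgeR adjusted p under 0.05), from log2 -0.31 for Cd8a to -1.74 for Cd8b1. Among 6 myeloid markers in the table, which summed to 29.8 to 64.4 CPM, Cst3 alone gave 28.0 to 63.4 CPM. The early activation genes Cd69, Il2ra and Nr4a1 all rose with anti-CD3 (log2 fold changes of 2.69, 5.00 and 3.69 with isotype). Lair1 itself had 0 to 7 counts per library, too few to compare. In bulk RNA, fewer cells of a type and less RNA per cell cannot be told apart.

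Anti-CD3 raised messenger RNA of the DNA-binding subunits. With isotype, 4 of the 5 subunits rose (Nfkb1, Nfkb2, Rel and Rela) and none fell, and with anti-LAIR-1 all 5 rose. Of these, Rel passed the filter on low counts with isotype only through the anti-CD3 libraries. Over all 10 genes, 6 rose and 2 fell with isotype, and 7 rose and 2 fell with anti-LAIR-1. The background was high, since 71.3% of 8690 genes were called with isotype (35.3% higher, 36.1% lower) and 72.7% of 9000 with anti-LAIR-1 (36.4% higher, 36.3% lower). A gene is called here where the p of the quasi-likelihood test in edgeR, adjusted after Benjamini and Hochberg for every gene in the fit, is under 0.05. Fold changes are from each fit, scaled over its own libraries and genes. They can therefore differ from ratios of the CPM, which are scaled over all 12 libraries. The median log2 fold change of the 10 genes was 0.70 with isotype, against -0.026 for all genes tested. In the same libraries the summed level of 4 genes of naïve T cells went from 3236 to 3415 CPM down to 401 to 486 CPM with isotype. The summed T cell and CD8 markers given above fell as well. The part of these shifts in the values of the 10 genes was not tested.

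Rel, the gene of c-Rel, a subunit prominent in lymphocytes, had the largest log2 fold change of the 10. The gene lies on chr11:23736847-23770970 (GENCODE M21, GRCm38, minus strand). With isotype alone it had 8, 8 and 5 counts in mice 1, 2 and 3, which is 2.65, 3.17 and 2.63 CPM, and with anti-CD3 it had 130, 202 and 190 counts, or 39.9, 43.3 and 30.8 CPM. The groups are far apart in all 3 mice. Rel rose 12.6-fold (log2 3.65, SE 0.28, edgeR adjusted p = 3.08e-11) with isotype and 7.54-fold (log2 2.92, SE 0.19, adjusted p = 7.59e-11) with anti-LAIR-1. The resting level behind the first value rests on few counts. In that fit Rel passed the filter on low counts only through the anti-CD3 libraries, so that the filter favoured a rise. With anti-LAIR-1 the unstimulated libraries had 14 to 19 counts and passed the filter too.

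Nfkb1 encodes p105, the precursor of p50, which acts both as an IkB-like inhibitor and, once processed, as a DNA-binding subunit. It lies on chr3:135584655-135691547 (minus strand). Its levels in mice 1, 2 and 3 were 249.9, 212 and 258 CPM with isotype alone and 1062, 1049 and 1179 CPM with anti-CD3. No resting library came near a stimulated library, and the rise was 4.35-fold (log2 2.12, SE 0.09, edgeR adjusted p = 2.44e-15). With anti-LAIR-1 present it was 3.79-fold (log2 1.92, SE 0.09, adjusted p = 7.54e-13).

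Nfkb2 encodes p100, the precursor of p52 and the hub of the non-canonical branch (chr19:46304320-46312385, plus strand). It went from 146, 138 and 133 CPM to 289, 292 and 283 CPM, a 1.96-fold rise (log2 0.97, SE 0.09, edgeR adjusted p = 2.90e-09). With anti-LAIR-1 the levels were 129.8, 167 and 169 CPM without and 247, 266 and 239 CPM with anti-CD3, a 1.59-fold rise (adjusted p = 3.96e-06). The groups did not overlap in either setting. Exons of Nfkb2 overlap those of Psd on the other strand, and Psd had at most 3 counts in any library.

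Rela, the gene of the p65 subunit (chr19:5637483-5648130, plus strand), moved less. It ranged from 55.5 to 70.3 CPM with isotype alone and from 84.2 to 98.0 CPM with anti-CD3, and rose 1.35-fold (log2 0.43, SE 0.12, edgeR adjusted p = 0.00348). With anti-LAIR-1 it rose 1.56-fold (log2 0.64, SE 0.10, adjusted p = 1.52e-05). The groups did not overlap in either setting. When libraries were scaled by their upper quartile, the first call was lost (log2 0.26, adjusted p = 0.0693).

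Relb, the partner of p52 in the non-canonical branch (chr7:19606217-19629438, minus strand), was between 37.3 and 43.1 CPM with isotype and between 49.8 and 51.5 CPM with anti-CD3. These groups did not overlap, but the log2 fold change of 0.23 did not pass the test (95% confidence interval -0.053 to 0.51, edgeR adjusted p = 0.137). With anti-LAIR-1 it went from 34.2 to 35.3 CPM up to 46.1 to 47.3 CPM and rose 1.33-fold (log2 0.42, SE 0.12, adjusted p = 0.00386). Upper quartile scaling ended that call too (adjusted p = 0.118). By size of the log2 fold change the subunits stood in the order Rel, Nfkb1, Nfkb2, Rela and Relb in both settings, with Relb not called in the setting with isotype. The 95% intervals of the neighbours Rela and Relb overlap in both, and those of Nfkb2 and Rela overlap with anti-LAIR-1.

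**Figure D2:**
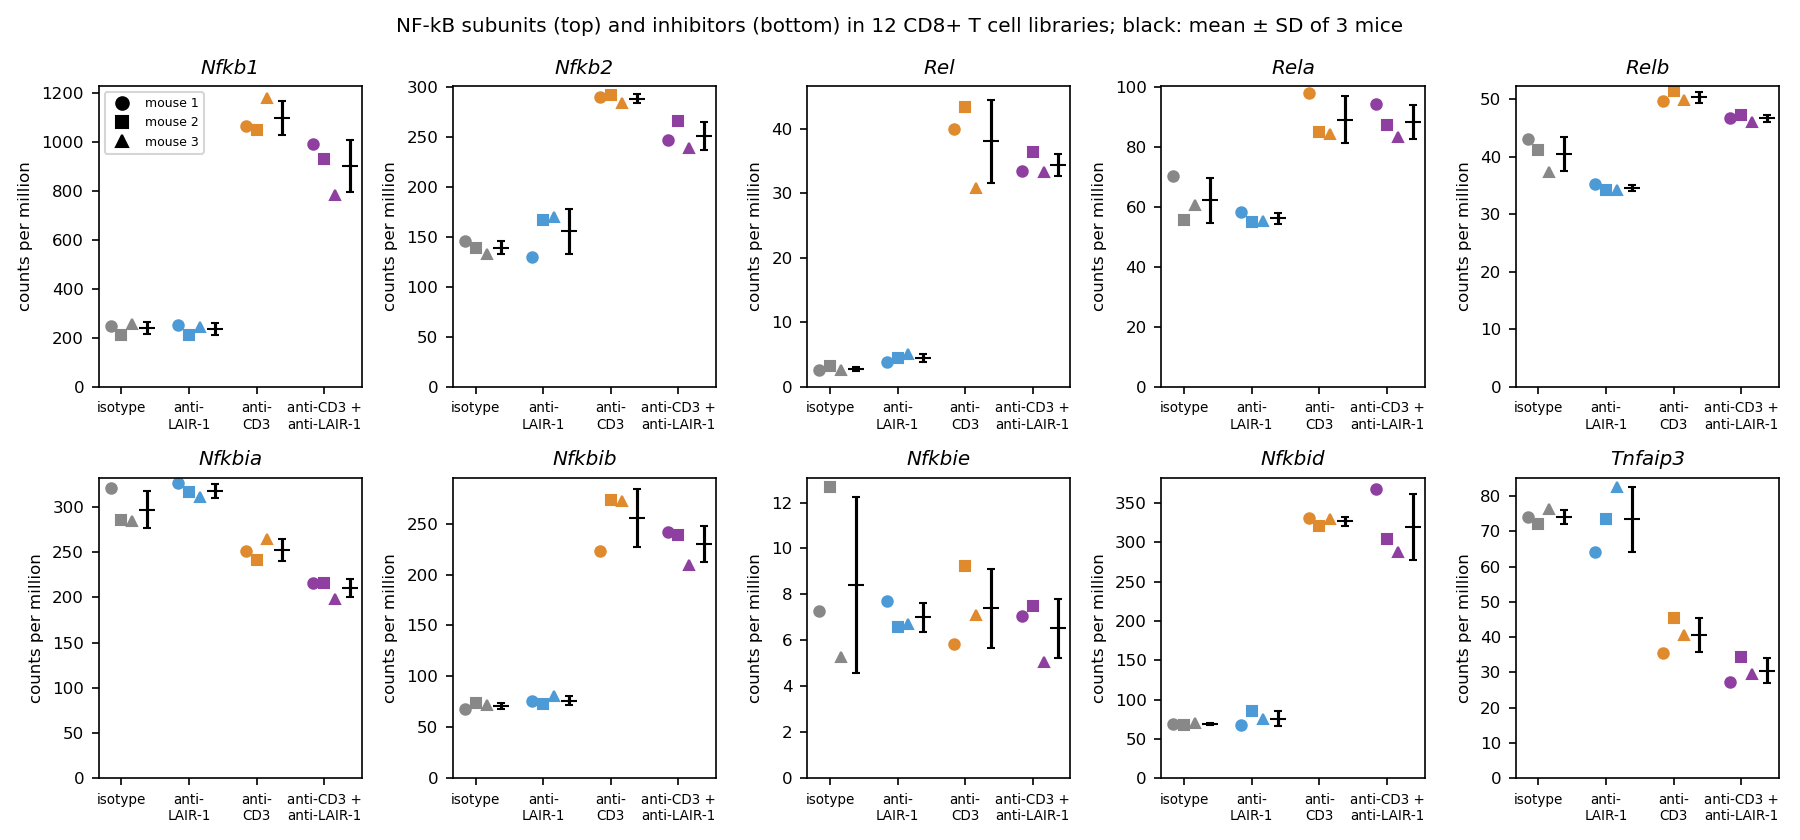
Level of each gene in CPM (vertical axis from 0) in the 4 groups, with 1 symbol per mouse and the mean ± SD of 3 mice in black. Nfkb1, Rel, Nfkbib and Nfkbid are several-fold higher in both anti-CD3 groups, while Tnfaip3 and Nfkbia are lower there.

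The inhibitors went both ways with anti-CD3. Nfkbid and Nfkbib rose, Tnfaip3 and Nfkbia fell, and Nfkbie did not pass the test, in both settings. The median log2 fold change of the 5 inhibitors was -0.27 with isotype, against 0.97 for the 5 subunits. The median of the inhibitors is the value of Nfkbie, which did not pass the test, and describes no shared direction.

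Nfkbid encodes IkBNS, a nuclear IkB protein that is induced by T cell receptor signals and regulates transcription with p50 (chr7:30421732-30428746, plus strand). Its levels were 69.0, 67.4 and 69.9 CPM in mice 1, 2 and 3 with isotype alone and 330.3, 320.1 and 329.5 CPM with anti-CD3, a 4.51-fold rise (log2 2.17, SE 0.10, edgeR adjusted p = 5.99e-15). With anti-LAIR-1 it went from 67.3, 85.3 and 75.2 CPM to 367, 304 and 288 CPM, a 4.16-fold rise (adjusted p = 2.59e-12). Each stimulated library lay far above every resting one.

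Nfkbib, the gene of IkBβ (chr7:28758251-28767512, minus strand), was at 68.0, 74.1 and 71.5 CPM with isotype and at 223, 273 and 272 CPM with anti-CD3. It rose 3.42-fold (log2 1.77, SE 0.12, edgeR adjusted p = 1.98e-12) with isotype and 2.98-fold (log2 1.58, SE 0.09, adjusted p = 1.13e-11) with anti-LAIR-1. Its exons overlap those of Sirt2 on the other strand. The use of strand in counting is not given in the sources used here, so that reads of the pair cannot be told apart in the overlap. Sirt2 averaged 34.4 CPM with isotype and 32.1 CPM with anti-CD3.

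Tnfaip3 encodes A20, a ubiquitin-editing enzyme that shuts down signalling to IKK (chr10:19000910-19015657, minus strand). It was at 74.0, 72.1 and 76.2 CPM in mice 1, 2 and 3 with isotype alone and at 35.6, 45.5 and 40.6 CPM with anti-CD3. Every stimulated library was below every resting library. Tnfaip3 decreased by 47.7% (log2 -0.93, SE 0.13, edgeR adjusted p = 1.14e-06) with isotype and by 59.1% (log2 -1.29, SE 0.13, adjusted p = 2.53e-08) with anti-LAIR-1.

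Nfkbia encodes IkBα, the inhibitor that is degraded and resynthesized fastest (chr12:55489410-55492647, minus strand). It went from 320.9, 285 and 284 CPM to 251, 241 and 265 CPM, and decreased by 19.4% (log2 -0.31, SE 0.09, edgeR adjusted p = 0.00435). With anti-LAIR-1 it went from 326, 317 and 311 CPM to 216, 216 and 199 CPM, and decreased by 34.7% (log2 -0.61, SE 0.08, adjusted p = 5.92e-07). The groups did not overlap in either setting. Without a filter on low counts the first call was lost (log2 -0.22, adjusted p = 0.0663).

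Nfkbie, the gene of IkBε (chr17:45555703-45563169, plus strand), had only 10 to 52 counts per library. Its levels overlapped between all 4 groups, at 5.26 to 12.7, 6.58 to 7.72, 5.84 to 9.22 and 5.08 to 7.48 CPM in the order of the groups above. The log2 fold change with anti-CD3 was -0.27 (95% confidence interval -0.95 to 0.41, edgeR adjusted p = 0.472) with isotype and -0.099 (adjusted p = 0.75) with anti-LAIR-1. Whether a change of this size could be detected here was not tested.

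**Figure D3:**
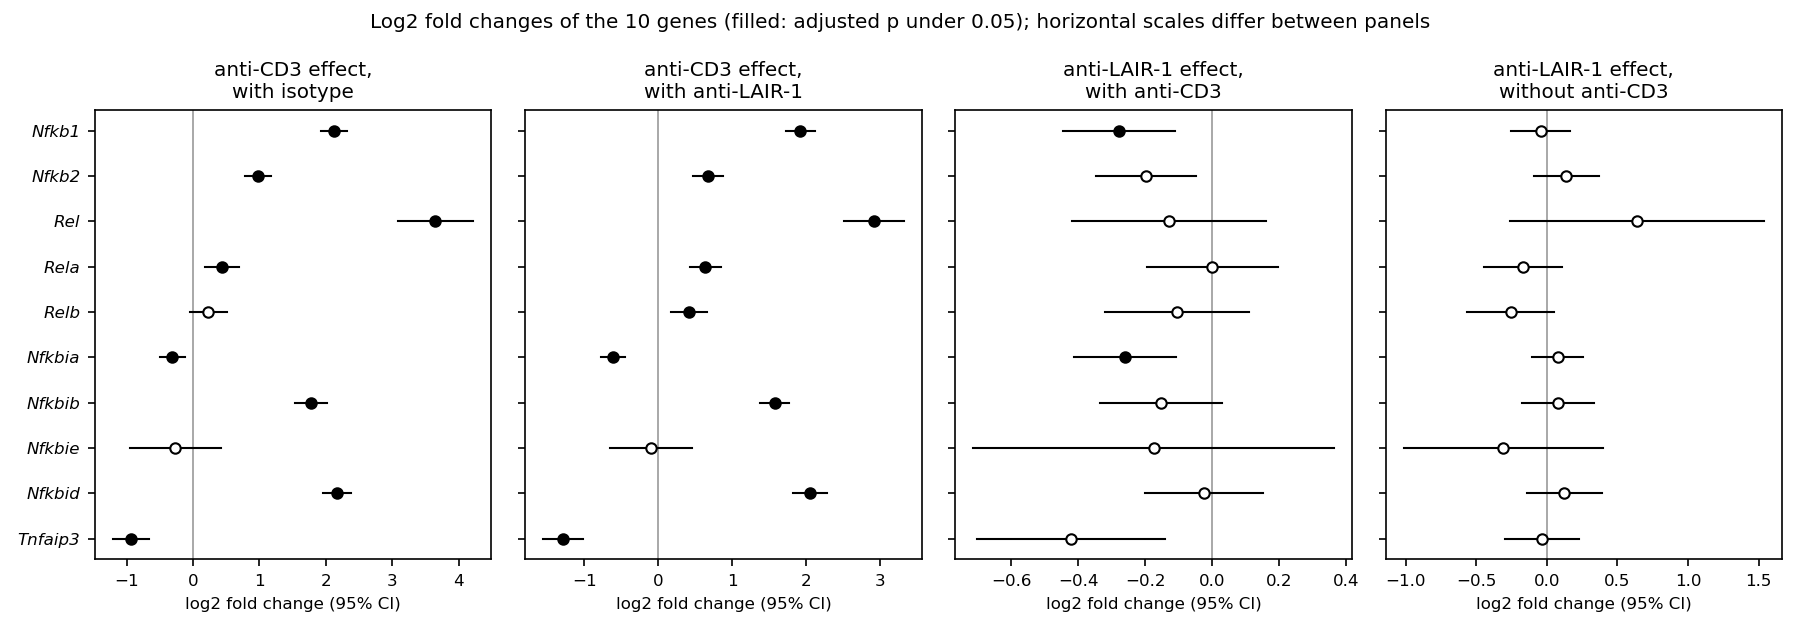
Log2 fold change of the 10 genes in 4 comparisons, as points with 95% confidence intervals, filled where the adjusted p is under 0.05. The anti-CD3 panels span changes from -1.29 to 3.65, while the filled points in the anti-LAIR-1 panels are Nfkb1 at -0.28 and Nfkbia at -0.26.

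In cells stimulated with anti-CD3, anti-LAIR-1 lowered the messenger RNA of 2 of the 10 genes, Nfkb1 and Nfkbia, by small amounts. None rose. Over all 8800 genes tested 5.76% were called, 1.86% as lower. The log2 fold change was negative for 9 of the 10 genes, with a median of -0.16 against 0.0047 for all genes. The CPM of the groups did not overlap for 5 of the 10 genes (Nfkb1, Nfkb2, Relb, Nfkbia and Tnfaip3), all lower with anti-LAIR-1, while 12.1% of all genes tested were lower without overlap. The 10 genes share the same 6 libraries, so that they are not independent of each other.

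Nfkb1 was at 1062, 1049 and 1179 CPM in mice 1, 2 and 3 with anti-CD3 and isotype, and at 992, 930 and 784 CPM with anti-CD3 and anti-LAIR-1. The groups did not overlap, though mouse 1 differed little and mouse 3 most, with log2 differences within the mouse of -0.099, -0.17 and -0.59. Nfkb1 decreased by 17.5% (log2 -0.28, SE 0.08, edgeR adjusted p = 0.0498), and with a replicate block for the mouse the adjusted p was 0.0495. The call is close to the threshold and was lost on leaving out any of 5 of the 6 libraries (edgeR adjusted p = 0.0668 to 0.183). It held without the anti-CD3 anti-LAIR-1 library of mouse 1 (adjusted p = 0.0243), and without that of mouse 3 the change was -0.19.

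Nfkbia was at 251, 241 and 265 CPM with isotype and at 216, 216 and 199 CPM with anti-LAIR-1. All 3 mice were lower, by log2 differences of -0.22, -0.16 and -0.41. It decreased by 16.5% (log2 -0.26, SE 0.07, edgeR adjusted p = 0.0441), and with the replicate block the call was lost (adjusted p = 0.0519). It was lost as well on leaving out any of the 6 libraries, with adjusted p from 0.0534 to 0.146.

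Tnfaip3 had the largest point estimate of the 10 genes in these cells. It was at 35.6, 45.5 and 40.6 CPM with isotype and at 27.4, 34.3 and 29.6 CPM with anti-LAIR-1, with differences of -0.38, -0.40 and -0.45 in the 3 mice. The log2 fold change of -0.42 (95% confidence interval -0.70 to -0.14) did not pass the test (edgeR adjusted p = 0.0747). It passed only when no filter on low counts was applied (adjusted p = 0.0416). With 116 to 251 counts per library it is also the less deeply counted of the 3.

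The log2 fold change of Nfkb2 was -0.20 (95% confidence interval -0.35 to -0.048, edgeR adjusted p = 0.122), with 283 to 292 CPM against 239 to 266 CPM. That of Relb was -0.10 (adjusted p = 0.652). Rel, Nfkbib, Nfkbie and Nfkbid gave -0.13, -0.15, -0.17 and -0.024 with adjusted p between 0.36 and 0.919, and their groups overlapped. For Rela the value was 0.0016 (95% confidence interval -0.19 to 0.20, adjusted p = 0.995), and its sign turned with the scaling.

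Other markers moved with anti-LAIR-1 in the same libraries. The summed level of 4 genes of naïve T cells was 401 to 486 CPM with anti-CD3 and isotype and 558 to 692 CPM with anti-CD3 and anti-LAIR-1, and 3 of the 4 rose. The 7 T cell and CD8 markers summed to 2238 to 2399 and 2600 to 2908 CPM. Of these 7, Cd3d, Cd3e and Cd3g rose and Thy1 fell (log2 -0.33, edgeR adjusted p = 0.0272). The part of these shifts in the values of Nfkb1 and Nfkbia was not tested.

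**Figure D4:**
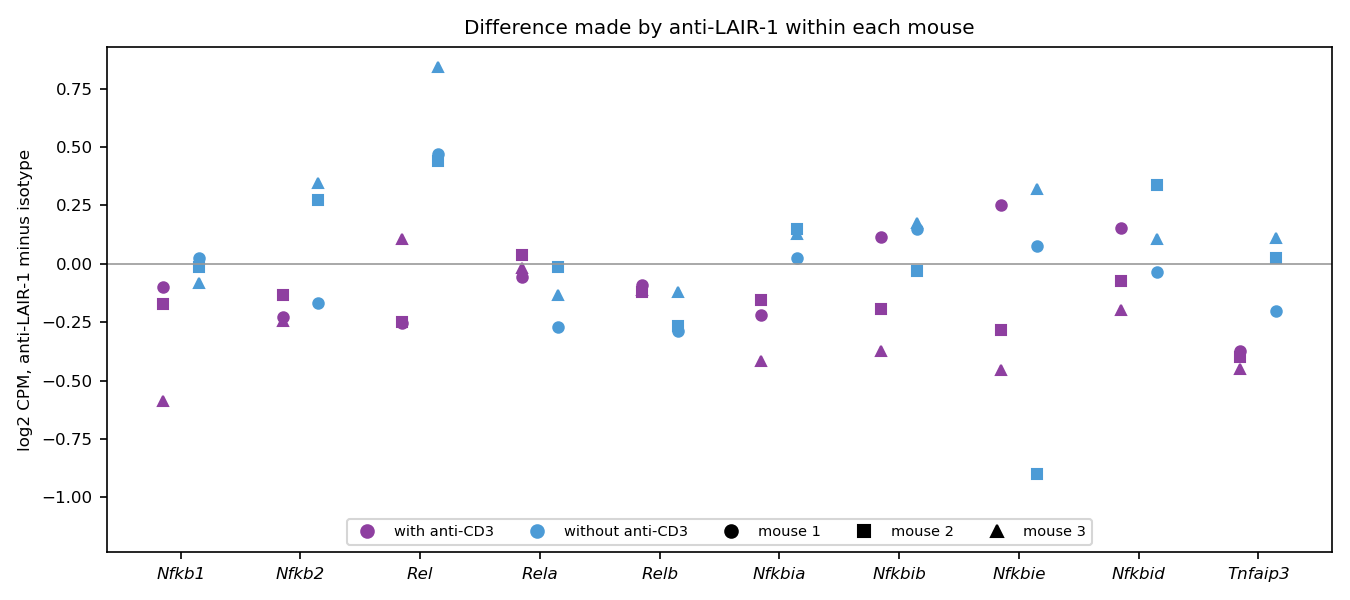
Log2 difference in CPM between anti-LAIR-1 and isotype within each mouse, with (purple) and without (blue) anti-CD3, for the 10 genes. With anti-CD3 all 3 mice are below 0 for Nfkb1, Nfkb2, Relb, Nfkbia and Tnfaip3, and Nfkb1 spreads from -0.099 to -0.59.

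Without anti-CD3, no change with anti-LAIR-1 was called in edgeR for any of the 10 genes, nor for any other of the 8770 genes tested (0%). Of all genes, 384 had an unadjusted p under 0.05, none of them among the 10, and DESeq2 also called 0 genes. The log2 fold changes were split 5 to 5 in sign, with a median of 0.022. The groups did not overlap for 2 of the 10 genes, as for 9.86% of all genes tested. These were Rel, at 2.63 to 3.17 CPM with isotype and 3.86 to 5.09 CPM with anti-LAIR-1 (log2 0.64, 95% confidence interval -0.26 to 1.54), and Relb, at 37.3 to 43.1 and 34.2 to 35.3 CPM (log2 -0.26, 95% confidence interval -0.56 to 0.051). Rel had 5 to 8 counts in the shallower isotype libraries and 14 to 19 in the others, and passed the filter on low counts only through the latter. Rel and Relb both had an edgeR adjusted p of 0.997.

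Whether anti-LAIR-1 acted differently with and without anti-CD3 was tested as an interaction over all 12 libraries. No gene of the 10 passed in edgeR, against 2.07% of all 9223 genes, and 3 had an unadjusted p under 0.05, as did 12.2% of all genes. DESeq2 called 0 of them as well, with 2 at an unadjusted p under 0.05. The lowest adjusted p was that of Nfkbia, whose difference of differences was -0.33 on the log2 scale (95% confidence interval -0.57 to -0.097, edgeR adjusted p = 0.16). Nfkb2 gave -0.33 (adjusted p = 0.278) and Tnfaip3 -0.38 (adjusted p = 0.386). The estimate of Rel was the largest in size, -0.77, with an interval of -1.55 to 0.015 that includes 0.

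The other genes of the pathway were read from 5 lists, whose counts with anti-CD3 and isotype stand beside the 71.3% of all genes called (35.3% higher, 36.1% lower). Of 11 genes of the IKK complex and its upstream kinases, 3 rose and 6 fell with anti-CD3 and isotype. Ikbke, an IKK-related kinase, decreased by 86.8% (log2 -2.92, SE 0.13, edgeR adjusted p = 3.65e-15), and Map3k14, the kinase of the non-canonical branch, changed by -1.26 (SE 0.27). Map3k8 and Map3k7, the latter being TAK1, rose by 0.99 and 0.58 on the log2 scale. The median of the list was -0.39.

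Of 17 genes that link the T cell receptor to IKK, BCL10, MALT1 and the ubiquitin machinery among them, 6 rose and 7 fell. Btrc, which recognizes phosphorylated IkB, was among the lowest, at -1.72 (SE 0.29, edgeR adjusted p = 1.47e-05). Ube2n, a ubiquitin-conjugating enzyme, and Malt1, a protease and partner of BCL10, rose by 1.36 and 1.23. Of 17 tested among other negative regulators, 3 rose and 10 fell. Their extremes were Tnip1, a binding partner of A20, at -2.12, and its relative Tnip2 at 1.98, with Pdlim2 at -1.95 and Commd1 at 1.33. Of 4 tested atypical IkB and Ras-like inhibitor genes, Bcl3 fell (-2.04, SE 0.25) and Nkiras1 rose (0.56, SE 0.25, edgeR adjusted p = 0.0444), though with the replicate block that call was lost (adjusted p = 0.064).

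Of 31 target genes of NF-kB tested with anti-CD3, 21 rose and 4 fell. Of these 31, 5 passed the filter on low counts only through the anti-CD3 libraries (Il2, Il15ra, Irf8, Lta and Plk2) and therefore had to differ. Among the other 26, 16 rose and 4 fell, with a median of 1.23 against -0.026 for all genes. The chemokine genes Ccl4 and Ccl3 rose most among these, 351-fold and 346-fold in the fit. Their mean CPM, on the scale of all 12 libraries, went from 13.4 to 4987 for Ccl4 and from 5.26 to 1969 for Ccl3. Il2 and Il15ra had 0 counts in all 3 unstimulated isotype libraries, so that their place in the order is unknown. A floor of 3 counts over that group was taken on unadjusted library totals. Against it Il2, the T cell growth factor, was at least 39.7-fold higher and Il15ra at least 30-fold higher. The lowest 2 were Ltb, a membrane lymphotoxin (-0.95, SE 0.10), and Tnfrsf18, the receptor GITR (-0.74, SE 0.15).

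With anti-LAIR-1 present, the anti-CD3 comparison gave 2 higher and 6 lower among the IKK list, 7 and 6 among the list with BCL10 and MALT1, 3 and 9 among the other negative regulators, 1 and 1 among the atypical IkB list, and 22 and 4 of 31 among the targets (17 and 4 of the 26). All genes were at 36.4% higher and 36.3% lower. Ikbke was again the lowest of the IKK list (-2.72), and Prkcq, a kinase of the list with BCL10 and MALT1, was at -1.16. Map3k8 (1.48), Map3k7 (0.68), Ube2n (1.40), Fbxw11 (1.18), Tnip2 (2.16), Commd1 (1.39) and Nkiras1 (0.48) were higher. Tnip1 (-1.57), Pdlim2 (-1.59), Ikbkg (-0.81) and Bcl3 (-0.97) were lower. Among the targets the chemokine genes Ccl4 (7.33) and Ccl3 (6.95) were highest and Ier3 (-1.19) and Xiap lowest, where Xiap decreased by 49.9%.

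In stimulated cells with anti-LAIR-1, 8 of the 31 target genes were called lower and none higher, with a median of -0.17, against 1.86% of all genes called lower. Among the 26 that passed the filter also without anti-CD3, 5 were lower and none higher, with a median of -0.14. The lists were chosen with earlier results of these data known. With the replicate block 9 of the 31 were called lower and 1 higher, where Plk2 (edgeR adjusted p = 0.0405) and Irf1, higher by 0.36 on the log2 scale (adjusted p = 0.0311), were added. The lowest 2 were Il2, at 15.4 to 18.0 CPM with isotype and 6.46 to 9.35 CPM with anti-LAIR-1 (log2 -1.07, SE 0.20, edgeR adjusted p = 0.00332), and Bcl2l1, the gene of the survival protein BCL-XL, at 67.5 to 81.6 and 39.8 to 40.8 CPM (log2 -0.87, SE 0.10, adjusted p = 6.21e-05). Neither pair of groups overlapped. Of the IKK and atypical IkB lists none was called in edgeR (2 and 1 genes at an unadjusted p under 0.05, as were 18.8% of all genes).

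In the list with BCL10 and MALT1, Malt1 was called lower, at 27.3 to 37.4 CPM with isotype and 20.5 to 24.1 CPM with anti-LAIR-1 (log2 -0.60, SE 0.15, edgeR adjusted p = 0.0211). Among the other negative regulators Tnip1 was called higher, at 19.1 to 21.0 and 28.8 to 29.7 CPM (log2 0.54, SE 0.14, adjusted p = 0.0266). The call of Malt1 was lost on leaving out any of 3 of the 6 libraries and that of Tnip1 on leaving out any of the 6 (adjusted p up to 0.108 and 0.102). The libraries with anti-CD3 and isotype also stand in the comparison with anti-CD3 above. Without anti-CD3 none of the 5 lists held a called gene in edgeR, with 2 target genes and no other listed gene at an unadjusted p under 0.05. In the interaction 3 of 31 target genes passed, and no gene of the other 4 lists, against 2.07% of all 9223 genes.

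**Figure D5:**
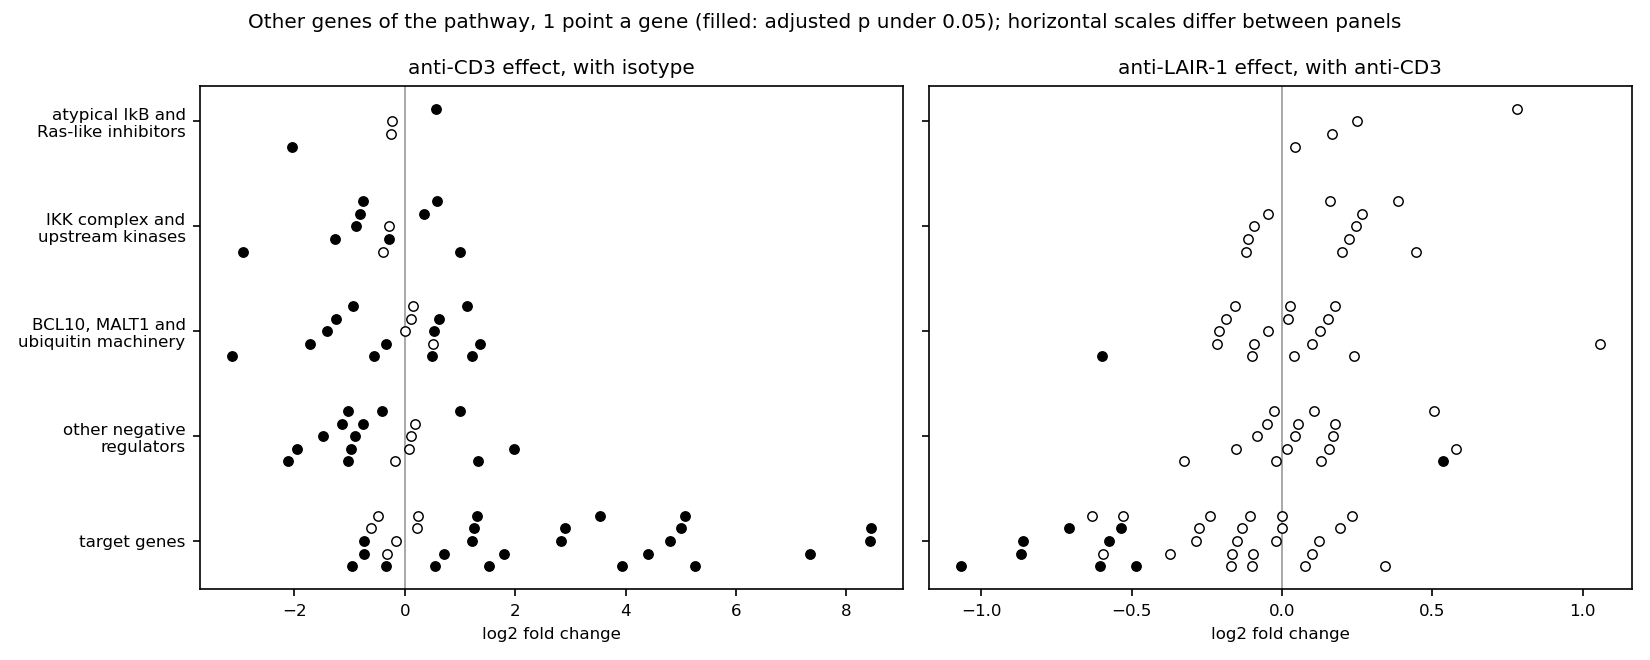
Log2 fold change of the tested genes of 5 pathway lists with anti-CD3 (left) and with anti-LAIR-1 in stimulated cells (right), filled where the adjusted p is under 0.05, with the height within a list spread only for legibility. Il2 and Il15ra are left out on the left because the unstimulated group had no counts, and the 8 filled target genes on the right all lie below 0.

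The genes whose profile over the 12 libraries was most like that of a gene called with anti-CD3 were found by the root mean square difference of centred log2 CPM, among 9222 others. Nfkb1 was nearest to Cct3 (0.079) and Npm1 (0.092), in a profile that itself spanned 2.49 on that scale. Rel was nearest to Pno1 (0.26) and Nop2 (0.27), with a span of 3.82, and these 2 changed with the prior count. Tnfaip3 was nearest to Atp8b4 (0.13) and Casp8 (0.16), with a span of 1.57. The nearest to the others were Arpp19 and Tmed7 for Nfkb2, Skp1a and Actg1 for Rela, Gpatch8 and Xrn2 for Nfkbia, M6pr and Srsf2 for Nfkbib, and Rars and Fkbp1a for Nfkbid, at 0.077 to 0.11. No gene among the 10 was among the 2 nearest of another.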

How the data were processed

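The authors sequenced 12 CEL-seq libraries, aligned reads to the mm10 transcriptome with BWA MEM and deposited raw read counts per gene symbol, without normalization. Whether reads of the same molecule were collapsed is not given in the sources used here, so limits drawn from counts cover counting error only. Columns were matched to samples by their labels.

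The counts were fitted in edgeR 4.0.16 under R 4.3.3, after filterByExpr and TMM scaling, by quasi-likelihood. Each fit held only the libraries of its own comparison (the interaction held all 12), and p-values were adjusted after Benjamini and Hochberg for every gene in the fit. The study names DESeq2, run here as an alternative (version 1.42.0), beside other scalings, filters, a block for the mouse and fits without each library. Comparisons that have a group in common share its libraries. CPM are scaled by TMM over all 12 libraries, and log2 CPM use a prior count of 2. The same mouse gave a library to each group, so mouse numbers pair the samples. Deviations from group means correlated with r from -0.0072 to 0.088 between libraries of 1 mouse. Pairs of replicate libraries differed by more than sampling noise (chi-square per degree of freedom 3.82 to 5.62). With 3 against 3, an exact two-sided permutation test cannot go below 0.1 and was not used.

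The 10 genes and the pathway lists were chosen with earlier results of these data known. Named beside the 10 are, per list and comparison, the 2 highest and 2 lowest called genes, the 2 nearest genes of each gene called with anti-CD3, and Lair1, Cd69, Il2ra and Nr4a1. Some of these are not reported here. Other genes named were chosen after their values were seen. Coordinates are from GENCODE M21 (GRCm38) and promoters from RefSeq (GRCm38.p6). The fits were tested on simulated data.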

Additional observations from a re-analysis of the deposited data

Results flagged for a closer look

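For 3 of 31 NF-kB target genes tested, the change with anti-LAIR-1 depended on the presence of anti-CD3 in the interaction test. Of all 9223 genes, 2.07% passed. The 3 are given here because they passed. The difference of differences was -1.52 on the log2 scale for Ccl3 (edgeR adjusted p = 0.0113), -1.16 for Ccl4 (adjusted p = 0.00924) and -1.21 for Bcl2l1 (adjusted p = 0.043). In unstimulated cells these genes had few counts, 8 to 42 for Ccl3, 23 to 98 for Ccl4 and 10 to 35 for Bcl2l1. The call of Bcl2l1 was lost on leaving out any of 10 of the 12 libraries (adjusted p up to 0.163), and that of Ccl3 and of Ccl4 on leaving out any of 2 each (up to 0.0872 and 0.0679). Ccl4 was named after its value was seen.

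With anti-CD3, Nfkbia was lower with anti-LAIR-1 in 3 of 3 mice, by log2 differences of -0.22, -0.16 and -0.41. Without anti-CD3 it was higher in 3 of 3 mice, but only by 0.023, 0.15 and 0.13. There the groups overlapped and no change was called (log2 0.077, edgeR adjusted p = 0.997). The gene is given here for these opposite signs, and the share of all genes with such signs is not given. The interaction test of Nfkbia did not pass (-0.33 on the log2 scale, edgeR adjusted p = 0.16).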

How the results depend on the processing

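With anti-CD3, the direction of all called members held under every alternative and when each library was left out, with 7 or 8 members called with isotype and 8 or 9 with anti-LAIR-1. Nfkbia and Nfkb1 in stimulated cells with anti-LAIR-1 stand less firmly. The count of 2 members called became 0 with upper quartile scaling, 0 with library size only, 1 with at least 10 counts in every library, 1 in edgeR with the replicate block, 0 in DESeq2 with the replicate block and 0 with all 12 libraries in 1 fit, and 0 to 1 when a library was left out. The direction of both held in each. The count of all genes called there was 507, and 239 in DESeq2 with the replicate block and 293 to 427 when a library was left out. Without anti-CD3 it was 0, and 5 with no filter on low counts and 0 to 1 when a library was left out. In the interaction it was 191, and 103 to 186 when a library was left out. The replicate block changed no other call of a member.

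Rela in stimulated cells with anti-LAIR-1 turned from 0.0016 to -0.0055 with DESeq2 size factors in edgeR, -0.0065 in DESeq2, -0.0072 in edgeR with the replicate block and -0.014 in DESeq2 with the replicate block, and ran from -0.049 to 0.065 when a library was left out. When a library was left out, signs of values that passed no test also turned for Nfkbie (-0.29 to 0.0034) and Nfkbid (-0.14 to 0.039) there, for Nfkb1 (-0.12 to 0.032), Nfkbie (-0.51 to 0.11) and Tnfaip3 (-0.13 to 0.054) without anti-CD3, and for Nfkbie with anti-CD3 (-0.47 to 0.14 with isotype, -0.18 to 0.054 with anti-LAIR-1) and in the interaction (-0.28 to 0.34). The cause was not tested. Upper quartile scaling moved the median of all genes with anti-CD3 from -0.026 to -0.20 with isotype and from -0.036 to -0.24 with anti-LAIR-1, and library size only moved the latter to -0.15. With upper quartile scaling the estimates of Rela with isotype and of Relb with anti-LAIR-1 stayed positive but did not pass the test. No fit was made on values set against those medians. A prior count of 0.5 changed both nearest genes of Rel. The values of Rel in unstimulated cells and of Nfkbie throughout rest on low counts.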
